A study of Mus musculus with 15 samples.

Results

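The comparison described here set GL261 tumors from mice given 100 µg per dose of the VEGF-A antibody B20.4.1.1 against GL261 tumors from mice given no antibody. Its 6 RNA-seq libraries were chosen by sample title from the 15 of the study, 3 from 100 µg tumors and 3 from untreated tumors. The other 9 came from 50 µg tumors, 200 µg tumors and healthy brain, 3 each. GL261 is a mouse glioma line, grown here in C57BL/6 mice, whose own vessels and immune cells supply the rest of the tumor. The first dose was given on day 10 of tumor growth, with further doses at intervals of 3 days up to the endpoint. All tumors were collected after perfusion with PBS and frozen, and a NEBNext Ultra kit was used to build libraries from the total RNA. The labels name no injected control, so untreated means only that, by the sample title, no antibody was given. The agent tag of untreated replicate 3 differs from its title, as described below. The labels call the samples of a group individual, without saying whether each is a separate animal. The p-values therefore measure only the spread between samples within groups, pooled over the 12 tumor libraries of all doses. The antibody binds the VEGF-A protein, so no transcript level serves as a check of dose.

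VEGF-A is secreted by hypoxic tumor cells and acts on the endothelial receptors VEGFR1 (Flt1) and VEGFR2 (Kdr), with neuropilins as co-receptors, to drive vessel sprouting and leakage. Cells short of oxygen switch on HIF target genes, including Vegfa itself and the enzymes of glycolysis. Cells short of amino acids, or with unfolded protein in the endoplasmic reticulum, translate the transcription factor ATF4, which switches on amino acid import, serine and asparagine synthesis and tRNA charging. These programs, and the host cells a piece of tumor can hold, set the order of the results.

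The tissue label held in all 6 libraries. Vim, an intermediate filament of glioma cells, was at 1171 to 1476 FPKM in 100 µg tumors and 1075 to 1556 FPKM in untreated tumors, against 14.5 to 19.1 FPKM in healthy brain. FPKM is the number of sequenced fragments scaled to transcript length and to the size of the library. Snap25, a synaptic protein, was at 1.19 to 4.41, 2.89 to 5.34 and 498 to 1040 FPKM in the same order. Depth, estimated from the deposited confidence intervals, was 22.0 to 25.1 M fragments in 100 µg tumors and 17.2 to 20.0 M in untreated tumors. These ranges do not overlap, and the part of depth in the results was not tested.

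Among the libraries compared here, replicate 3 at 100 µg stood apart. Replicate 3 of the 100 µg group listed 7145 single-exon transcripts, against 16242 and 26850 in its partners and 12717 to 13619 in untreated tumors. A gene cut into pieces is one with several exons whose reads were assembled as short separate fragments, and such genes made up 0.662% of expressed genes in this library, against 2.53 and 4.45% in its partners, 2.87 to 3.59% in untreated tumors and 0.920 to 0.972% in 200 µg tumors. On the first principal component, with 23.8% of the variance, it scored 42.6, while its partners scored -18.2 and -17.1, the untreated tumors -40.5 to -29.1 and the 200 µg tumors 41.5 to 50.9. The agent tag in the labels gives this library 200 µg where its title gives 100 µg, and the tag disagrees with the title or is absent for replicate 3 of every tumor group. Titles were used for grouping, and results that rest on this library are given with and without it.

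**Figure D1:**
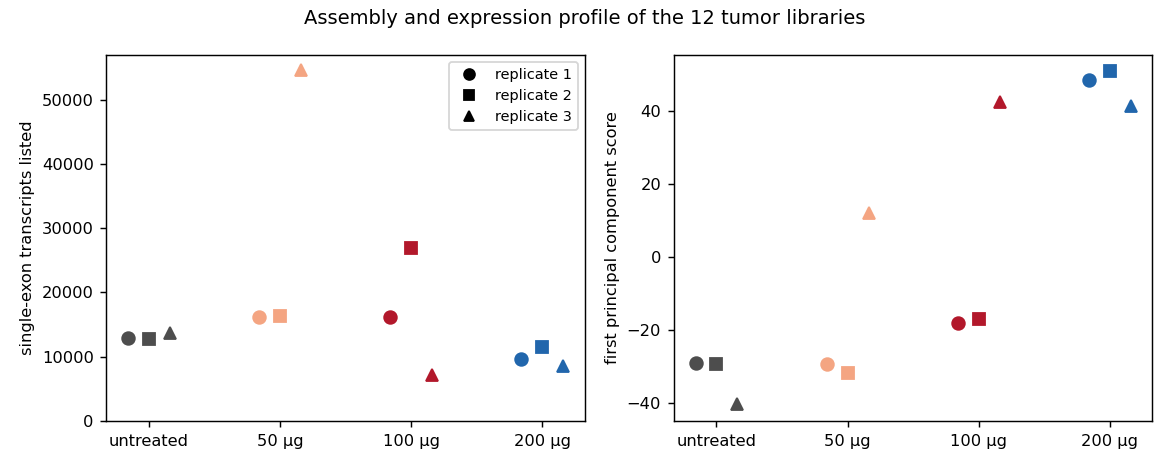
Left, number of single-exon transcripts listed in each of the 12 tumor libraries, and right, score on the first principal component (arbitrary units), by dose, where each symbol is 1 library. Replicate 3 at 100 µg, with 7145 single-exon transcripts and a score of 42.6, lay with the 200 µg libraries on both, and replicate 3 at 50 µg stood apart with the most single-exon transcripts.

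Few genes passed the test at 100 µg. Of 14653 genes tested with limma on log2(FPKM + 1), 13 were called at a Benjamini-Hochberg adjusted p under 0.05, which is 0.0887% of genes. Of these 11 were higher (0.0751%) and 2 lower (0.0136%). The genes that rose included Slc1a4, which carries neutral amino acids into the cell, Cth, which makes cysteine from cystathionine, Cp, a copper protein that oxidizes iron, and Ccnd2, a cyclin that drives cells out of G1. The gene that fell, among those with no overlap or copy, was Rhd, which encodes a Rhesus blood group protein of red cells.

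Gene values came from assembled transcripts, so a gene was treated as uncertain where it overlapped another gene, shared transcripts joined across both, or had near-identical copies. Of the 13 called genes 8 were uncertain, beside 49.8% of all genes tested. At an unadjusted p under 0.05 stood 1313 genes (8.96%), 726 higher (4.95%) and 587 lower (4.01%). The groups did not overlap for 1100 genes that were higher (7.51%) and 1036 that were lower (7.07%). These percentages are the background for every count of members. The median log2 difference over all genes tested was -0.01, with 48.5% above 0 and 51.5% below.

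Slc1a4, the alanine, serine and cysteine transporter ASCT1, lies on chromosome 11 (GRCm38, chr11:20302180-20332713, minus strand). It stood at 28.7, 24.4 and 29.5 FPKM in 100 µg tumors, against 12.1, 13.2 and 11.9 FPKM in untreated tumors. All 3 libraries at 100 µg lay well above all 3 untreated ones, with little spread inside either group. It rose by 1.09 on the log2 scale (SE 0.15, 95% interval 0.76 to 1.41, adjusted p = 0.0376 by limma), and by 1.04 without replicate 3 (adjusted p = 0.0382).

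Cp encodes ceruloplasmin and lies on chromosome 3 (chr3:19957054-20009145, plus strand). Its level was 22.5, 17.9 and 27.6 FPKM in 100 µg tumors and 5.41, 3.94 and 8.27 FPKM in untreated tumors. The lowest 100 µg library was above the highest untreated one by more than the range of the untreated group. The log2 difference was 1.81 (SE 0.24, 95% interval 1.29 to 2.33, adjusted p = 0.0376 by limma), and 1.67 without replicate 3 (adjusted p = 0.0428). Of the 17 iron and copper handling genes tested, Cp was the one called. Trf, the iron carrier transferrin, which overlaps another gene, had 213, 245 and 173 FPKM in 100 µg tumors and 108, 96.2 and 96.7 FPKM in untreated tumors (unadjusted p = 0.0251, limma across all genes). The median of that list was -0.03. Leaving out 1 library moved it between -0.14 (without replicate 3 at 100 µg) and 0.05 (without replicate 2 at 100 µg).

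Cth encodes cystathionine gamma-lyase (chr3:157894248-157925077, minus strand). It was at 17.8, 22.3 and 22.7 FPKM in 100 µg tumors, against 4.68, 4.32 and 6.96 FPKM in untreated tumors, with no overlap. The difference was 1.81 (SE 0.26, adjusted p = 0.0438 by limma) and 1.75 without replicate 3 (adjusted p = 0.0618), where it was no longer called. Ccnd2 (chr6:127125162-127152193, minus strand) was at 130, 119 and 131 FPKM in 100 µg tumors and 56.3, 48.4 and 49.8 FPKM in untreated tumors. Its difference was 1.28 (SE 0.18, adjusted p = 0.0438 by limma) and 1.25 without replicate 3 (adjusted p = 0.0509). Gm43126, an antisense gene within Ccnd2, was called with it, and strand could not be used to tell the pair apart.

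Rhd (chr4:134864536-134896172, plus strand) fell to 1.16, 2.02 and 1.83 FPKM in 100 µg tumors, against 4.83, 7.84 and 5.97 FPKM in untreated tumors. These low levels rest on about 39 to 69 fragments per library at 100 µg and 126 to 238 in untreated tumors. The difference was -1.43 (SE 0.21, adjusted p = 0.0438 by limma) and -1.48 without replicate 3 (adjusted p = 0.0509). The other red blood cell genes that could be tested were 2 of the 6 listed, neither called, with sums over the list of 72.7, 15.4 and 41.3 FPKM at 100 µg and 81.8, 66.1 and 233 FPKM in untreated tumors. In healthy brain the sums were 267, 264 and 252 FPKM, and Rhd was at 0 in all 3 libraries. In 50 µg tumors the sums were 184, 19.9 and 39.6 FPKM, with Rhd at 6.62, 5.87 and 5.37 FPKM. In 200 µg tumors they were 36.0, 39.6 and 218 FPKM, with Rhd at 1.55, 2.10 and 2.36 FPKM. The part of red cells in the Rhd value was not tested.

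The calls lay close to the threshold, and which genes passed depended on the libraries in the fit. A fit of the 6 libraries alone called 7 genes, 4 higher and 3 lower, none of them among the 13, and grouping by agent tag called 10, 4 higher and 6 lower, again none of the 13. Over 27 other settings or left-out libraries, Cp passed in 16, Slc1a4 in 14, Ccnd2 in 11 and Cth in 9, and Rhd in 6 of 26. No gene was called when replicate 2 of the 100 µg group, or replicate 1 or 2 of the 200 µg group, which shares in the estimate of spread, was left out. Without untreated replicate 1, 2 or 3 the count was 5, 1 or 4, with 1, 0 and 1 of the 13 among them.

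The 8 uncertain calls were Ltc4s, Hectd2, Hectd2os, Cfap43, Gm20652, Gm9824 and Gm43126, all higher, and Gm6485, which was lower. Ltc4s, the synthase of leukotriene C4, was listed at 3.29, 8.94 and 2.89 FPKM in 100 µg tumors and at 0 in every untreated, 50 µg and 200 µg tumor. It overlaps Gm26542, and an exact 0 in an assembled table can be a failed assembly. Ltc4s also reached the mean needed for a test only through the 100 µg tumors. Groups at 0 add no spread to the fit, so its call rests partly on the filter and the fit. Hectd2, a ubiquitin ligase, was at 6.21, 5.39 and 5.07 FPKM in 100 µg tumors and 1.13, 1.52 and 1.44 FPKM in untreated tumors, but it shares transcripts with its antisense partner Hectd2os.

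**Figure D2:**
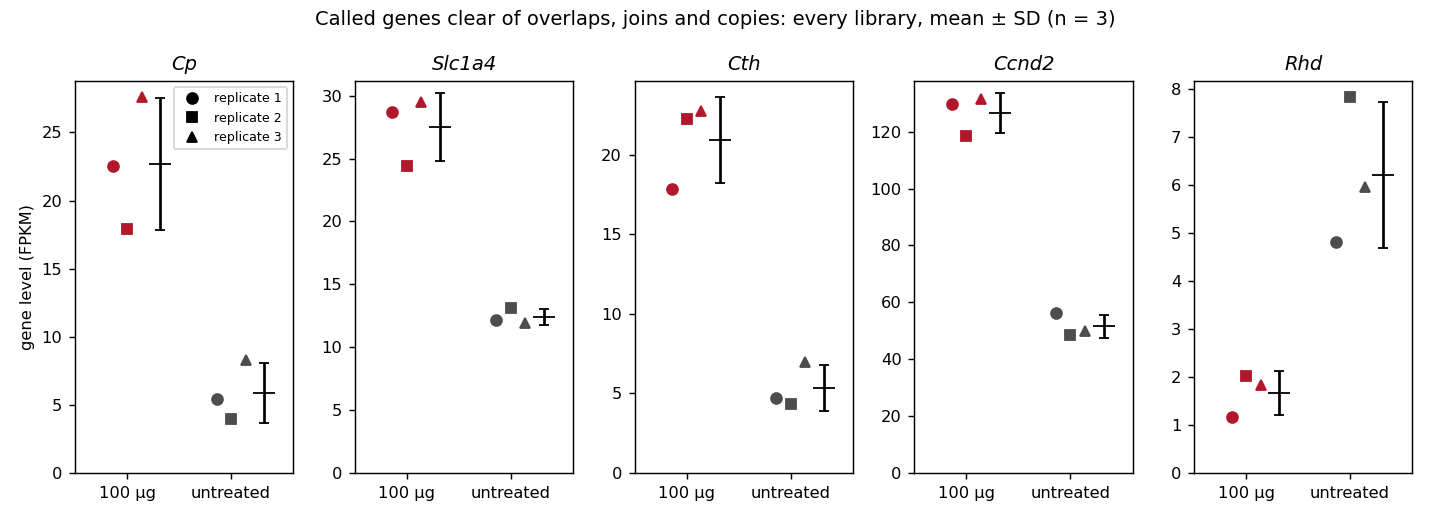
FPKM of the 5 called genes free of overlaps, joined transcripts and copies, with each symbol 1 library and the bar the mean and SD of 3. Cp, Slc1a4, Cth and Ccnd2 were higher in every 100 µg library than in any untreated one, and Rhd was lower.

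Of those 5 genes, Slc1a4 and Cth act in amino acid supply, and the ATF4 program that serves this need was read as a whole. The gene lists used here and below were chosen with earlier results of these data known. Their counts and medians are descriptions and not tests. Of 17 ATF4 stress response regulators tested, 15 lay above 0, 8 were higher at an unadjusted p under 0.05 and none was lower at that level, with a median log2 difference of 0.43 beside -0.01 for all genes. None of the 17 was called by limma after adjustment over all genes. In each 100 µg library taken alone the list median was above the untreated mean, by 0.65, 0.41 and 0.50. Atf4 itself was at 332, 396 and 382 FPKM in 100 µg tumors and 211, 192 and 232 FPKM in untreated tumors, a difference of 0.80 (adjusted p = 0.437 by limma). Nupr1, a chromatin protein induced by stress, was at 128, 193 and 86.4 FPKM at 100 µg and 43.7, 23.7 and 28.1 FPKM in untreated tumors (2.03, adjusted p = 0.145 by limma). Chac1, an enzyme that breaks down glutathione, was at 41.1, 27.8 and 22.3 FPKM at 100 µg and 11.8, 9.47 and 13.5 FPKM in untreated tumors (1.29, adjusted p = 0.279 by limma).

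Not every ATF4-linked gene had separate groups. Atf5, which shares a transcript with another gene, and Gdf15, a stress cytokine, did. Atf3 was at 10.9, 8.48 and 9.44 FPKM at 100 µg and 10.05, 7.57 and 9.52 FPKM in untreated tumors, and Trib3, an inhibitor of ATF4 output, was at 97.6, 102 and 117 against 72.0, 108 and 102 FPKM. For both of these the groups overlapped. Eif2ak3 and Eif2ak4, the kinases PERK and GCN2 that start the response, had differences of -0.09 and -0.27.

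Enzymes of serine, one-carbon, asparagine and proline synthesis also lay mostly above 0. Of 16 tested, 13 lay above 0, with 9 higher and 2 lower at an unadjusted p under 0.05 and a median of 0.53, and 11 had groups that did not overlap on the higher side. None was called by limma. Gpt2, a mitochondrial alanine transaminase, was at 36.8, 40.6 and 31.1 FPKM in 100 µg tumors and 25.9, 19.7 and 19.3 FPKM in untreated tumors (0.72, adjusted p = 0.246 by limma). Phgdh, the entry enzyme of serine synthesis, which has near-identical copies, was at 118, 112 and 108 FPKM against 72.8, 63.4 and 80.5 FPKM. Asparagine synthetase Asns was at 74.1, 75.6 and 85.6 FPKM against 55.1, 58.6 and 47.4 FPKM. Mthfd1, a cytosolic folate enzyme, was on the lower side, at 16.3, 15.1 and 22.3 FPKM in 100 µg tumors and 27.9, 20.8 and 26.3 FPKM in untreated tumors (-0.47, adjusted p = 0.556 by limma), with overlapping groups.

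Among 12 amino acid transporters tested, Slc1a4 was the one called, 5 were higher at an unadjusted p under 0.05 and none lower, and the median was 0.51. Slc7a11, the cystine and glutamate exchanger, was at 5.03, 4.23 and 8.51 FPKM in 100 µg tumors and 1.19, 1.59 and 1.63 FPKM in untreated tumors (1.44, adjusted p = 0.185 by limma). Slc7a5, the large neutral amino acid transporter LAT1, was at 116, 115 and 123 FPKM against 75.3, 73.4 and 66.0 FPKM, and its partner chain Slc3a2, which shares a transcript with another gene, was at 149, 138 and 107 against 76.2, 88.0 and 80.0 FPKM. In all of these the 100 µg libraries lay above the untreated ones.

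Transsulfuration, cystine and glutathione genes had a median of 0.27 over 16 tested, with Cth called and 4 higher at an unadjusted p under 0.05. Slc7a11 and Chac1 count in this list too. Gstm1, a glutathione transferase, was at 20.5, 9.88 and 10.7 FPKM in 100 µg tumors and 5.34, 4.81 and 3.57 FPKM in untreated tumors (1.34, adjusted p = 0.202 by limma). The 20 cytosolic tRNA synthetases split: 3 were higher and 2 lower at an unadjusted p under 0.05, and 7 had separate groups on the higher side and 4 on the lower. Wars, which charges tRNA with tryptophan, was at 69.5, 59.7 and 58.3 FPKM at 100 µg and 31.6, 29.7 and 34.7 FPKM in untreated tumors (0.94, adjusted p = 0.0861 by limma). Vars, which charges tRNA with valine, was at 51.0, 47.4 and 42.0 against 76.8, 65.9 and 66.8 FPKM. The synthetase list also depended on replicate 3, with library medians of -0.02, 0.06 and 0.49.

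**Figure D3:**
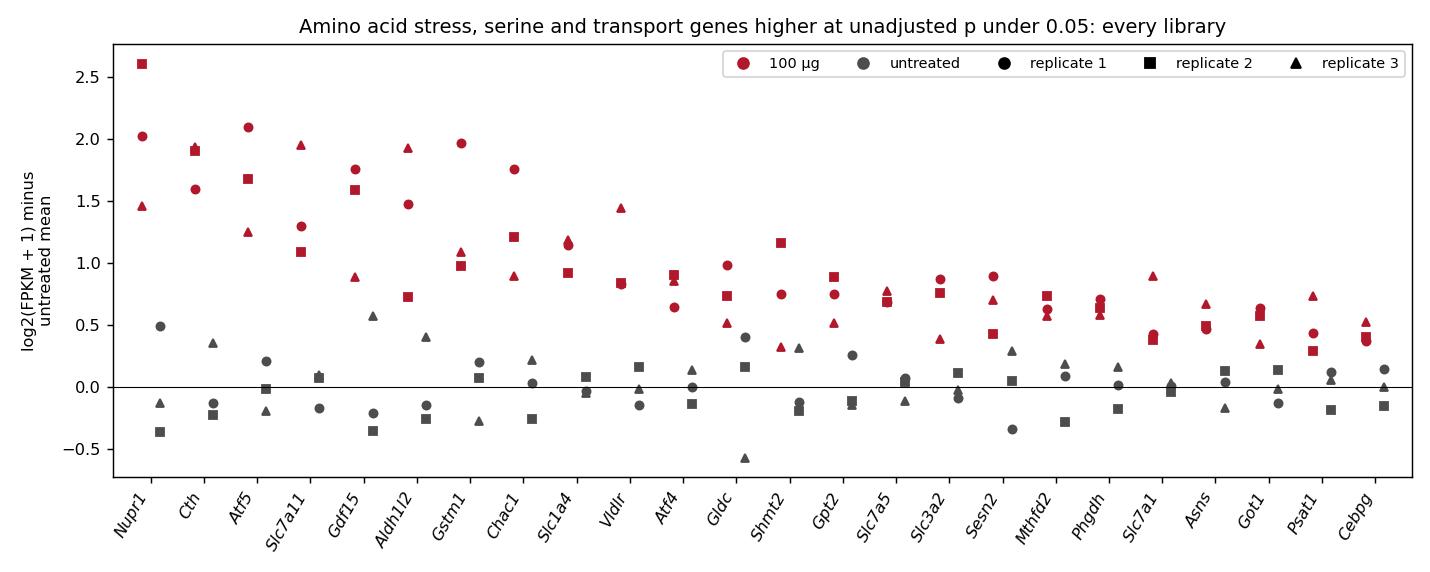
Log2(FPKM + 1) of each 100 µg and untreated library minus the untreated mean, for the 24 genes of the ATF4, serine, transporter and transsulfuration lists that were higher at an unadjusted p under 0.05. Members on the left such as Nupr1 and Cth had every 100 µg library above every untreated one, with smaller differences toward the right.

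Promoters of these genes were searched for TGATGNAA, the letters of the composite element that ATF4 binds with C/EBP partners, on both strands, from 250 bases before to 50 bases after the RefSeq transcription start (build GRCm38.p6). Of all 32851 promoters 3.97% held a match. Of the tested genes in the ATF4, serine, transporter, tRNA synthetase and transsulfuration lists, 60 of 79 had a promoter in the table and 15 of these held a match, or 25%, against 4.51% of all genes. These lists were drawn up from knowledge of ATF4 targets and with earlier results of these data known, so the share describes the lists and not the tumors. Cth, Ccnd2 and others are not in the table. Slc1a4 and Cp are shown whole because they were called and clear of other genes. Capitals mark the match, which in Slc1a4 lies across the start (chr11:20332664-20332963, minus strand). The Cp window (chr3:19956804-19957103, plus strand) had none, which says only that these letters are not in it.
Slc1a4: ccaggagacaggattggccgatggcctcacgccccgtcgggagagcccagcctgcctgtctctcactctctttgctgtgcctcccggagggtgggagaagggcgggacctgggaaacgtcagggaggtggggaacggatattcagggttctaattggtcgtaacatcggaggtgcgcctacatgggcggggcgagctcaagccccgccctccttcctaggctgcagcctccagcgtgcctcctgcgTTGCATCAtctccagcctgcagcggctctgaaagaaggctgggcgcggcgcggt
Cp: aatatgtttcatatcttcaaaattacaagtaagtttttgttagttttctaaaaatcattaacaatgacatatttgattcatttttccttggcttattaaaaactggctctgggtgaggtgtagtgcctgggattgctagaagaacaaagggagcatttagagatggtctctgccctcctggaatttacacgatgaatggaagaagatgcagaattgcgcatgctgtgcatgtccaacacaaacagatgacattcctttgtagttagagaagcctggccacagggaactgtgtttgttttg

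Of the 27 members higher at an unadjusted p under 0.05 in these lists, 22 had a promoter in the table and 8 held a match. Beside Slc1a4, the matches of 5 others are shown with 16 bases on each side, 5′ to 3′ on the gene's strand, to compare their letters. Nupr1 (chr7:126625557-126625596, minus strand), Chac1 (chr2:119351033-119351072, plus strand) and Vldlr (chr19:27216804-27216843, plus strand) hold the same 8 letters, the reverse complement of the element. Slc7a11 (chr3:50443637-50443695, minus strand) holds 2 matches, one in each orientation. Asns (chr6:7693209-7693248, minus strand) holds it as written, with A at the free base.
Nupr1: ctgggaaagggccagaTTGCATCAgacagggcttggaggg
Chac1: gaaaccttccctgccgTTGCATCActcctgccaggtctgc
Vldlr: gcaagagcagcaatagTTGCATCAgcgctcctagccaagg
Slc7a11: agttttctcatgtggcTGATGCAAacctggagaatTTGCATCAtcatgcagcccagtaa
Asns: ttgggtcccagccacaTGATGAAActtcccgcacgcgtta

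The target of the antibody did not differ detectably at the transcript level. Vegfa was at 85.9, 48.1 and 52.0 FPKM in 100 µg tumors and 68.6, 55.6 and 37.7 FPKM in untreated tumors, with overlapping groups (0.19, SE 0.37, adjusted p = 0.943 by limma). Vegfb, which shares a transcript with another gene, was at 17.7, 16.7 and 14.6 FPKM against 22.1, 23.5 and 21.7 FPKM. Pgf, placental growth factor, a ligand of Flt1, was at 3.80, 2.35 and 2.55 FPKM in 100 µg tumors and 8.24, 7.84 and 4.02 FPKM in untreated tumors (-0.95, adjusted p = 0.396 by limma). Both of these had every 100 µg library below every untreated one, and neither was called. Vegfc was listed at 0 in all 6 libraries, and Vegfd was under the level needed for a test.

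Of the receptors, the co-receptor Nrp2 had separate groups on the higher side. It was at 13.4, 9.79 and 15.2 FPKM in 100 µg tumors and 5.86, 4.32 and 5.87 FPKM in untreated tumors (1.11, SE 0.20, adjusted p = 0.107 by limma), and was not called. Kdr was at 1.92, 2.79 and 5.05 FPKM at 100 µg and 5.12, 1.76 and 2.59 FPKM in untreated tumors, and its sign changed without replicate 3 (-0.24). Flt1, at 4.17, 5.03 and 6.46 against 6.37, 6.29 and 5.14 FPKM, and Nrp1, which shares a transcript with another gene, also overlapped. Flt4, the receptor of lymphatic vessels, was at 1.19, 1.15 and 1.24 FPKM against 1.90, 1.32 and 1.57 FPKM (-0.24).

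Vessel cell genes gave no calls. Of 23 endothelial identity genes tested none was called, 1 was lower at an unadjusted p under 0.05 (Nos3, which overlaps another gene), and the median was -0.10, which became 0.13 without untreated replicate 1. Pecam1, a junction protein of all endothelium, was at 2.90, 3.48 and 5.54 FPKM in 100 µg tumors and 5.69, 3.63 and 2.94 FPKM in untreated tumors. In a piece of tumor, fewer cells of a type and less RNA per cell cannot be told apart. Of 13 tip cell genes, which mark the leading cells of sprouts, 11 lay below 0 with a median of -0.28, and none reached an unadjusted p under 0.05. Groups did not overlap for 3 of the 13, Esm1, Dll4 and Igfbp3 (a binding protein of insulin-like growth factors), all on the lower side, and the median was -0.48 without replicate 3 at 100 µg. Esm1, secreted by tip cells under VEGF, was at 2.80, 3.87 and 3.40 FPKM at 100 µg and 13.1, 6.12 and 5.69 FPKM in untreated tumors (-1.02, unadjusted p = 0.169, limma across all genes). The 13 pericyte genes had a median of 0.14 (0.02 to 0.32 leaving out 1 library), and none reached that level either.

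Transport genes of the blood-brain barrier had a median of 0.38, with 5 of 14 higher and 1 lower at an unadjusted p under 0.05, none of them called. The efflux pump Abcg2 was at 5.73, 6.18 and 7.34 FPKM in 100 µg tumors and 4.04, 3.62 and 3.16 FPKM in untreated tumors (0.69, adjusted p = 0.322 by limma). Slc7a5 and Slc3a2, already described as amino acid transporters, make up 2 of the 5. Slc2a1, the glucose transporter GLUT1 and a HIF target, was the member on the lower side, at 85.0, 65.4 and 121 against 226, 198 and 163 FPKM (-1.14, unadjusted p = 0.0493, limma across all genes).

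Notch signaling, through which tip cells hold back their neighbors, had the highest list median, 0.62 over 12 tested, among the lists with at least 9 tested genes, with 4 higher at an unadjusted p under 0.05, none lower and none called. The ligand Jag1 was at 26.2, 18.9 and 16.2 FPKM in 100 µg tumors and 5.88, 6.18 and 5.53 FPKM in untreated tumors (1.62, SE 0.30, adjusted p = 0.11 by limma). The target gene Hes1 was at 22.2, 22.8 and 11 FPKM against 5.86, 6.88 and 4.04 FPKM (1.54, adjusted p = 0.24 by limma), and Hey1 was at 10.4, 4.03 and 4.17 FPKM against 1.83, 2.15 and 1.53 FPKM (1.24, adjusted p = 0.333 by limma). For all 3 the groups were separate. The tip cell ligand Dll4 was at 2.08, 2.34 and 2.25 FPKM in 100 µg tumors and 3.38, 2.53 and 2.86 FPKM in untreated tumors (-0.28).

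Glycolysis and hypoxia genes lay mostly below 0. Of 36 tested, 29 were below 0, 8 were lower and none higher at an unadjusted p under 0.05, and the median was -0.30, with library medians of -0.17, -0.44 and -0.23. None was called, and 19 of the 36 were uncertain. Ldha, lactate dehydrogenase A, was clear of other genes at 256, 225 and 264 FPKM in 100 µg tumors and 363, 382 and 378 FPKM in untreated tumors (-0.59, adjusted p = 0.279 by limma). Pdk1, which keeps pyruvate out of the mitochondria, was at 5.13, 3.91 and 6.81 against 10.8, 10.7 and 7.73 FPKM (-0.79, adjusted p = 0.355 by limma). In both, every 100 µg library was below every untreated one. Hif1a, at 19.0, 20.7 and 38.3 against 17.2, 20.9 and 17 FPKM, and the tumor hypoxia marker Car9, at 4.90, 4.60 and 5.51 against 10.2, 6.29 and 5.90 FPKM, did not reach an unadjusted p under 0.05.

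Genes of dividing cells lay lower in replicates 1 and 2 of the 100 µg group than in replicate 3. All 25 mitosis genes tested lay below 0, with a median of -0.42, and 3 were lower at an unadjusted p under 0.05. The library medians were -0.91, -0.48 and -0.04, and without replicate 3 the list median was -0.69. Mki67, a marker of cycling cells, showed this spread, at 12.4, 13.4 and 28.9 FPKM in 100 µg tumors and 31.8, 20.0 and 23.8 FPKM in untreated tumors. Aurka, a kinase of the spindle poles, and Plk1, a mitotic kinase, were the members with the lowest p, and both share transcripts with other genes. Of 28 DNA replication genes, 26 lay below 0 with a median of -0.34, and library medians of -0.49, -0.40 and -0.22.

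**Figure D4:**
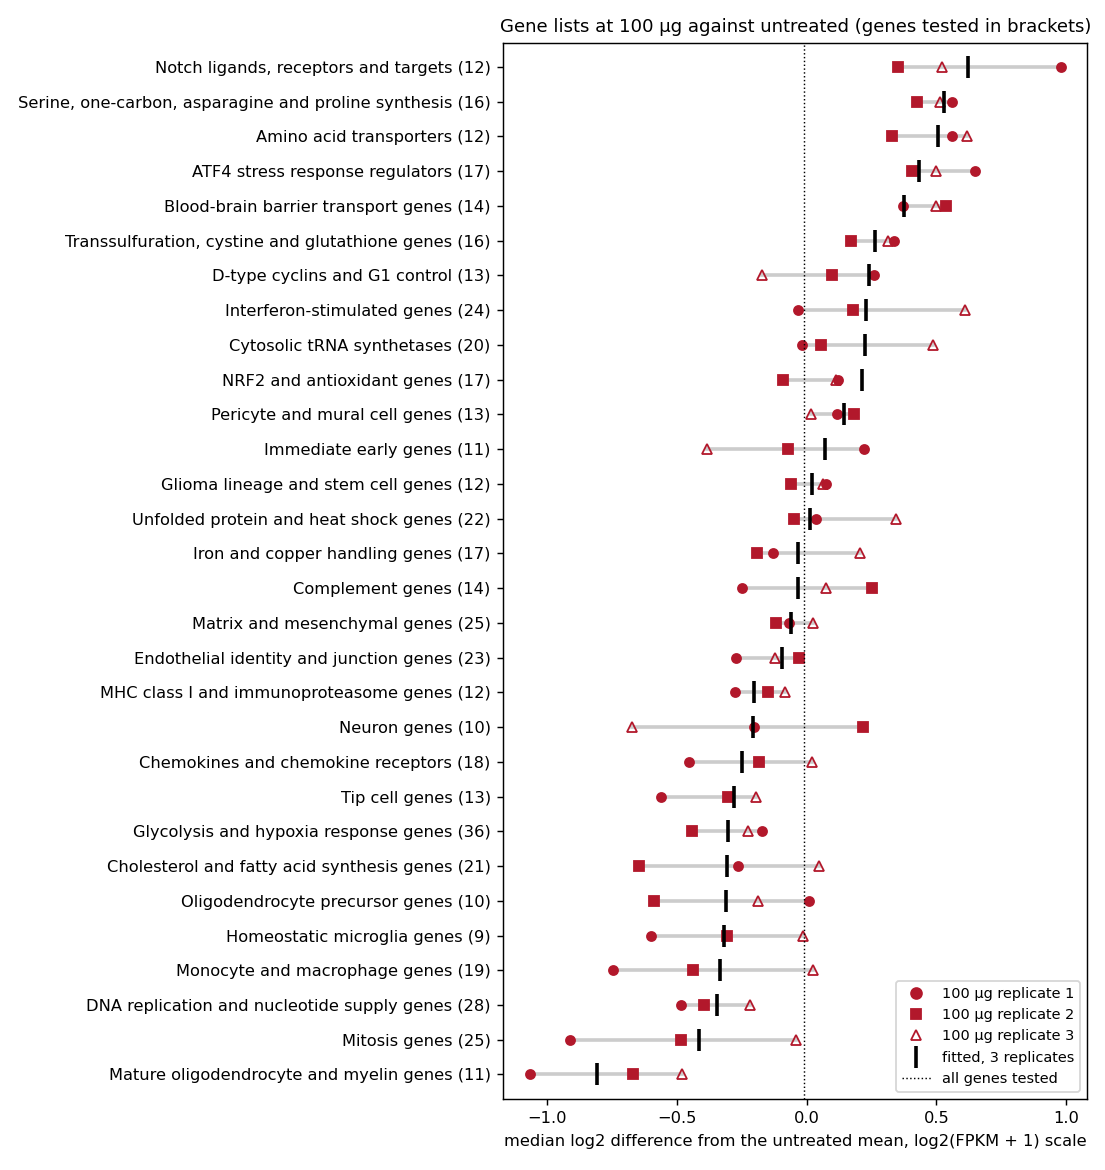
Median log2 difference from the untreated mean for each gene list with at least 9 tested genes, with 1 symbol for each 100 µg library, a bar for the value fitted over 3 libraries and a dotted line for all genes tested. Notch, serine, transporter, ATF4 and blood-brain barrier lists were among those above 0 in all 3 libraries. The myelin, glycolysis, DNA replication, mitosis and tip cell lists were among those below 0 in all 3. For mitosis, monocyte and interferon genes replicate 3 lay apart from replicate 1.

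Lists of host brain cells gave no calls and did not share a direction. Neuron genes had a median of -0.21 over 10 tested, with 3 above 0 and 1 lower at an unadjusted p under 0.05, astrocyte genes 0.20 over 6 tested, with 4 above 0 and 1 higher, and oligodendrocyte precursor genes -0.31 over 10 tested, with none at that level. Library medians of the neuron list were -0.20, 0.22 and -0.67. Without replicate 3 at 100 µg its median was -0.02, with 1 higher and none lower at that level. The astrocyte median was then 0.49 with none, and the precursor median -0.24 with 2 lower. All 11 mature oligodendrocyte genes tested lay below 0, with a median of -0.81 and 6 lower at an unadjusted p under 0.05, none called. Opalin, a myelin membrane protein, was at 0.781, 0.518 and 0 FPKM in 100 µg tumors and 4.19, 11.8 and 3.87 FPKM in untreated tumors (-2.30, adjusted p = 0.232 by limma). Mbp, an abundant myelin protein, was at 7.48, 6.75 and 7.36 FPKM against 8.63, 8.85 and 7.18 FPKM. Ttr, the transthyretin made by choroid plexus, was at 2.80, 3.03 and 0 FPKM in 100 µg tumors and 49.6, 44.2 and 3.54 FPKM in untreated tumors (-3.13, adjusted p = 0.317 by limma). Of 9 choroid plexus genes 2 could be tested, and the list summed to 4.51, 4.27 and 2.25 FPKM in 100 µg tumors and 51.2, 45.7 and 5.03 FPKM in untreated tumors. Whether these genes reflect how much brain was collected with each tumor was not tested.

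Tmem119, a membrane protein used as a marker of resident microglia, had the largest difference among the 12 lowest genes clear of uncertainty. Its level in healthy brain was 13.6, 12.6 and 8.44 FPKM, below every untreated tumor. Which cells of the tumors carried it was not tested. It was at 8.26, 4.99 and 18.4 FPKM in 100 µg tumors and 52.8, 94.0 and 162 FPKM in untreated tumors (-3.20, SE 0.51, adjusted p = 0.0715 by limma), and was called without replicate 3 (-3.66, adjusted p = 0.036). Other microglia genes did not share this size. Olfml3, which shares transcripts with other genes, was at 15.4, 10.9 and 9.28 FPKM at 100 µg and 30.3, 24.7 and 24.6 FPKM in untreated tumors. Its groups were separate (-1.12, adjusted p = 0.272 by limma). P2ry12, a purine receptor of microglia, was at 0.957, 1.72 and 2.73 FPKM against 1.87, 1.84 and 1.47 FPKM, and Trem2, a lipid receptor of microglia and macrophages, was at 8.35, 14.9 and 8.90 against 14.4, 8.93 and 17.7 FPKM. Of 13 microglia genes listed 9 were tested, all 9 lay below 0, and the median was -0.32. At an unadjusted p under 0.05 2 of them were lower, and groups did not overlap for 2, on the lower side. The library medians were -0.60, -0.31 and -0.02, and leaving out 1 library gave -0.58 (without untreated replicate 2) to -0.13 (without untreated replicate 3). The defining gene Siglech was at 0 in all 6 libraries.

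Immune genes had no common direction. Of 19 monocyte and macrophage genes, 1 was higher and 3 lower at an unadjusted p under 0.05, none called, with library medians of -0.75, -0.44 and 0.02. Cd14, a receptor for bacterial lipopolysaccharide on monocytes, was at 5.49, 6.77 and 8.52 FPKM in 100 µg tumors and 16.9, 14.5 and 18.6 FPKM in untreated tumors (-1.17, adjusted p = 0.2 by limma). Spp1, secreted by tumor macrophages, was on the other side at 68.6, 64.9 and 67.9 against 27.0, 27.4 and 54.3 FPKM, and it overlaps another gene. Of 24 interferon-stimulated genes 3 were higher at an unadjusted p under 0.05, none called, and the list rested on replicate 3, with library medians of -0.03, 0.18 and 0.61. The 8 T and NK cell genes and 8 MHC class II genes tested had medians of 0.17 and -0.41, none was called, and 1 of them, Cd3g, was higher at an unadjusted p under 0.05. Leaving out 1 library moved the T and NK median between 0.05 (without replicate 3 at 100 µg) and 0.36 (without untreated replicate 3), and the class II median between -0.86 (without untreated replicate 2) and -0.13 (without untreated replicate 3).

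The remaining genes with the highest moderated t among those clear of uncertainty were Timp2, Lbp, Foxo1, G0s2 and Pcdh18. Timp2, an inhibitor of matrix metalloproteases, was at 24.6, 21.9 and 19.7 FPKM in 100 µg tumors and 10.4, 11.2 and 9.84 FPKM in untreated tumors (1.00, SE 0.17, adjusted p = 0.0861 by limma). Lbp, which carries lipopolysaccharide to Cd14, was at 52.2, 39.5 and 35.9 against 12.7, 16 and 10.8 FPKM (1.62, SE 0.27, adjusted p = 0.0861 by limma). G0s2, an inhibitor of fat breakdown, was at 27.9, 31.0 and 13.8 against 3.76, 5.22 and 3.18 FPKM. None of these 5 was called, though no 100 µg library overlapped an untreated one. On the lower side Sgk2, a kinase related to Akt, was at 0.586, 0.83 and 1.84 FPKM in 100 µg tumors and 4.80, 4.94 and 4.13 FPKM in untreated tumors (-1.47, adjusted p = 0.0861 by limma). Cst6, a cysteine protease inhibitor, was at 26.7, 23.8 and 25.7 against 58.5, 77.4 and 69.3 FPKM (-1.39, adjusted p = 0.107 by limma). The others there, none called, were Jsrp1, Bik, Fam92a, Arhgdig, Mtfp1 and Gltp, with log2 differences of -3.00 to -0.85, and Slc36a3os and Gm15486, which were listed at 0 in every 100 µg tumor.

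Without replicate 3, 24 genes were called (0.164%), 17 higher (0.116%) and 7 lower (0.0477%), and 6 of the 13 genes called with it were among them. Clear of uncertainty were 10 of the 24, and those known by a gene name beyond Slc1a4 and Cp were Serpinf1, Csn3, Msln, Tmem119, Sgk2 and Epcam. These are named because they passed there, after their values had been seen. Also clear were Gm22009, at 13.7 and 49.8 FPKM in replicates 1 and 2 at 100 µg, and Gm36738, at 9.84 and 2.82 FPKM. Both were at 0 in all other tumor libraries. Like the uncertain Gm23935, Mir99b and Ltc4s, they reached the mean needed for a test only through the 100 µg tumors. Groups at 0 add no spread, so these calls rest partly on the filter and the fit. Serpinf1 encodes PEDF, a secreted inhibitor of angiogenesis. It was at 66.2, 79.3 and 22.0 FPKM in 100 µg tumors and 12.5, 15.0 and 11.9 FPKM in untreated tumors (1.82, adjusted p = 0.175 with replicate 3, and 2.38, adjusted p = 0.00481 without, by limma). Csn3, the milk protein kappa-casein, was at 62.7, 57.7 and 17.8 against 5.60, 4.73 and 5.77 FPKM (adjusted p = 0.136 with replicate 3 and 0.0420 without, by limma). Epcam, an epithelial adhesion molecule, was at 9.35, 13.8 and 33.2 against 38.9, 57.7 and 82.8 FPKM (adjusted p = 0.201 with and 0.0381 without, by limma). In each, replicate 3 lay between its partners and the untreated tumors.

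The 100 µg group was then set beside the other doses, whose comparisons with untreated tumors use the same 3 untreated libraries and the same fit. At 50 µg no gene was called against untreated tumors by limma, with 588 genes (4.01%) at an unadjusted p under 0.05, and at 200 µg 415 genes (2.83%) were called. Replicate 3 at 50 µg had 14.6% of expressed genes in pieces, against 2.99 and 3.86% in its partners. On the second principal component, with 16.7% of the variance, it scored -93.4, against 4.42 and -0.19. Its part in the absence of calls at 50 µg was not tested. With no antibody Slc1a4 averaged 12.4 ± 0.659 FPKM, and with 50, 100 and 200 µg it averaged 14.1 ± 1.27, 27.5 ± 2.74 and 30.8 ± 0.893 FPKM (SD, n = 3 each). Cp averaged 5.87 ± 2.20, 6.54 ± 0.177, 22.7 ± 4.83 and 39.5 ± 3.64 FPKM over the doses from 0 to 200 µg, and Rhd 6.21 ± 1.52, 5.95 ± 0.625, 1.67 ± 0.453 and 2.00 ± 0.411 FPKM. For all 3 genes the 50 µg tumors lay near the untreated ones. At 100 µg Slc1a4 and Rhd lay near their 200 µg levels, while Cp lay midway between its 50 and 200 µg levels. Cth ran more evenly, at 5.32 ± 1.44, 13.2 ± 3.57, 20.9 ± 2.70 and 26.5 ± 6.60 FPKM.

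The difference between doses was tested in the same fit. Between 100 and 50 µg no gene was called by limma (0%), with 1384 genes at an unadjusted p under 0.05 (9.45%). Cp differed by 1.63 (adjusted p = 0.0644), Rhd by -1.39 (adjusted p = 0.0644), Slc1a4 by 0.91 (adjusted p = 0.0876), Ccnd2 by 0.79 (adjusted p = 0.274) and Cth by 0.65 (adjusted p = 0.488), all by limma. Between 100 and 200 µg 5 genes were called (0.0341%), 2 higher (0.0136%) and 3 lower (0.0205%) at 100 µg, with 8.45% at an unadjusted p under 0.05, and the count was 528 without replicate 3 of the 100 µg group. Of those 5, the pseudogene Pgk1-ps1 was the one clear of uncertainty, listed at 0 in all 3 libraries at 100 µg and at 11.1, 7.08 and 8.04 FPKM at 200 µg. It reached the mean needed for a test only through the 200 µg tumors. Ltc4s, also among the 5, did so only through the 100 µg tumors. Slc1a4 differed by -0.16 between 100 and 200 µg (95% interval -0.48 to 0.16) and Rhd by -0.18 (-0.63 to 0.28), while Cp differed by -0.79 (-1.31 to -0.27, adjusted p = 0.58 by limma).

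List medians can be set side by side across doses, with the shared untreated libraries in mind. The ATF4 regulators had medians of 0.16 at 50 µg, 0.43 at 100 µg and 0.39 at 200 µg, and the transporters 0.12, 0.51 and 0.54. The Notch list had -0.13, 0.62 and 0.30, and Jag1 averaged 7.99, 20.4 and 28.9 FPKM in that order, beside 5.86 FPKM in untreated tumors. Tip cell genes had -0.32, -0.28 and -0.80, and mitosis genes -0.09, -0.42 and -0.11. Differences between these medians were not tested.

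**Figure D5:**
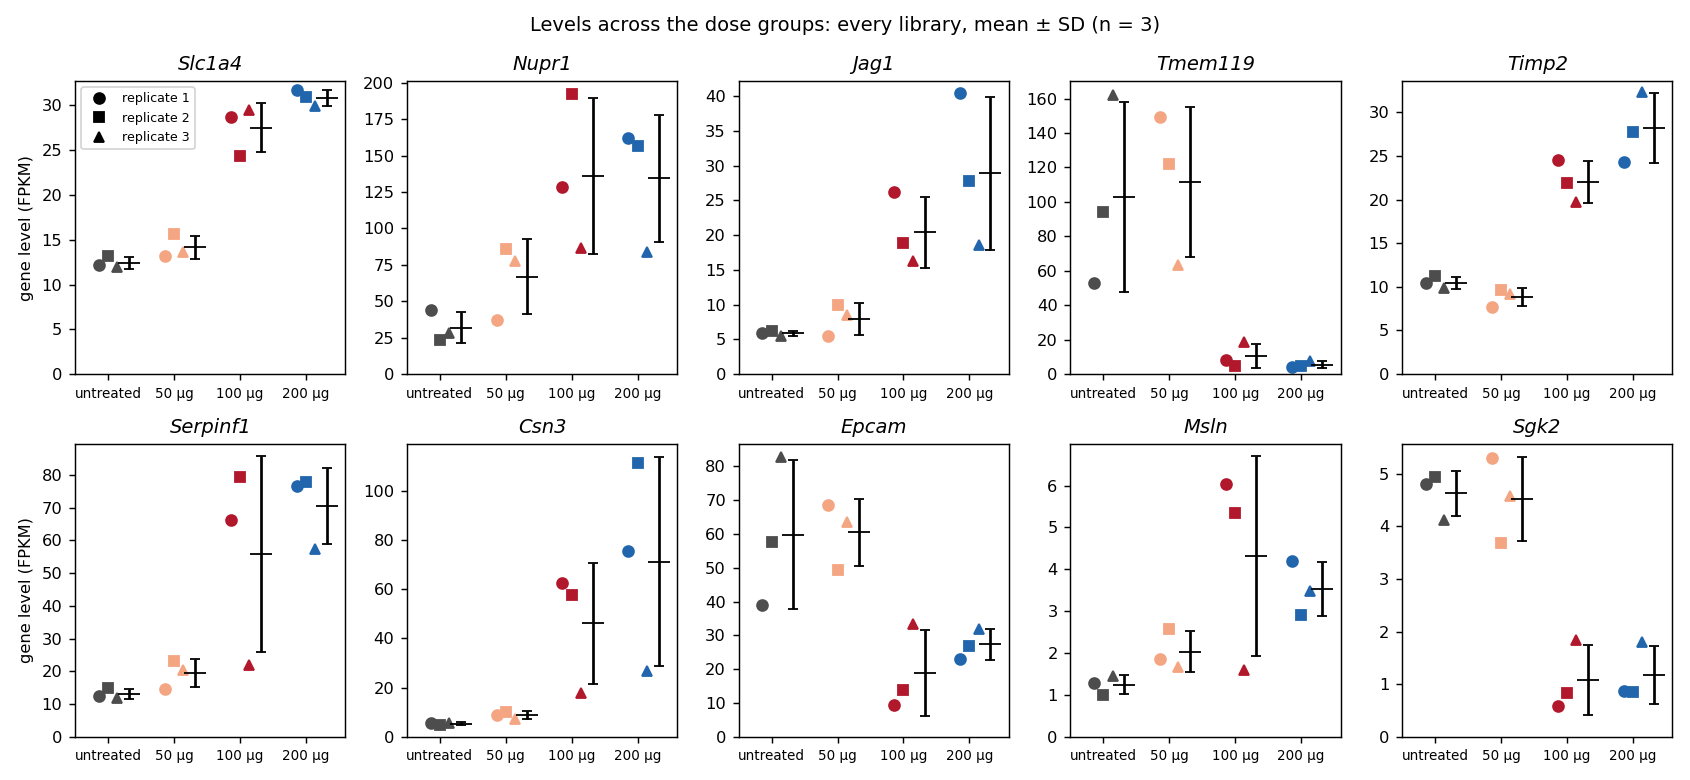
FPKM by dose for 10 named genes, with each symbol 1 library and the bar the mean and SD of 3. Slc1a4, Jag1, Timp2 and Tmem119 at 100 µg lay on the side of the 200 µg tumors, while Serpinf1, Csn3 and Msln had replicate 3 at 100 µg below its partners.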

How the data were processed

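Per the submitters' processing notes, the authors aligned reads with STAR to mm10 and assembled each library apart with Cufflinks; no source used here gives versions or parameters. The authors deposited 1 transcript list per library, with FPKM, relative to that library's total, and its confidence interval, and no other score or count was used. Transcripts carried no gene names and no usable strand.

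A gene's value was the FPKM of transcripts on its GENCODE M21 basic exons (bedtools 2.31.1) times the share of its exonic length covered, summed. Single-exon transcripts under 200 bp were set aside. A gene was uncertain where 10% of its exons overlapped another gene, where 25% of its value came from joined transcripts, or where 30% of its 50-mers recurred elsewhere.

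Differences came from limma 3.58.1 (R 4.3.3), two-sided, on log2(FPKM + 1), in 1 fit of the 12 tumor libraries, trend and robust off. Genes needed a mean of 1 FPKM over the tumor libraries in the fit, so some were tested only because 1 group was high. That scale understates changes of low genes. The pipeline was tested on simulated data.

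Members and the 46 gene lists were chosen with earlier results of these data known. Named were all called genes, the 12 highest and 12 lowest by moderated t clear of uncertainty, the VEGF axis and up to 4 members of a list by p. Members at 0 in a library are listed so. Some list members are not reported by name here.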

Additional observations from a re-analysis of the deposited data

How the results depend on the processing

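Against untreated tumors the count of 13 became 6 (1 shared with the 13) with a plain FPKM sum of intron-matched transcripts, 4 with a pseudocount of 5, 25 with no filter, 5 with a mean of at least 5 FPKM, 7 (0 shared, 4 higher and 3 lower) in a fit of the 6 libraries only, 7 with quantile scaling, 4 with trend and robust on, 49 (4 shared) without the 4 libraries numbered 3, and 44 (1 shared) in the 6-library fit without replicate 3 at 100 µg. Leaving out 1 library gave 0 to 24, with 21 (13 shared) without replicate 3 at 50 µg and 24 (6 shared) without replicate 3 at 100 µg. A replicate block left 0 calls by limma (1312 genes at an unadjusted p under 0.05). Between the 100 µg and untreated groups, samples with the same number did not deviate together (r = -0.08 to -0.06). Among libraries of other groups, replicate 3 at 50 µg was the closest match of 100 µg replicates 2 and 3. These correlations cannot decide whether the numbers pair samples across all doses, because same-numbered pairs with other doses were not compared. Regrouping by agent tag gave 10 calls, 4 higher and 6 lower, 0 of them shared with the 13.

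Against 50 µg the count of 0 became 11 with the intron-matched sum, 11 with all single-exon transcripts set aside, 2 with a pseudocount of 0.1, 19 with no filter, 22 regrouped by agent tag, 20 without libraries numbered 3, and 0 to 19 leaving out 1 library. Against 200 µg the count of 5 became 3, 1, 3, 1 and 3 with the intron-matched sum, all single-exon transcripts set aside, a pseudocount of 5, a mean of at least 5 FPKM, and trend and robust on, 1 with the replicate block, 1517 regrouped by agent tag, 330 without libraries numbered 3, and 1 to 528 leaving out 1 library. The causes were not tested.

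Some uncalled differences changed sign. Vegfa was -0.30 regrouped by agent tag, with a range of -0.067 to 0.38 leaving out 1 library. Kdr was -0.84 with the intron-matched sum, -0.26 regrouped, -0.31 without libraries numbered 3, and -0.24 to 0.367 leaving out 1 library, with -0.24 without replicate 3 at 100 µg in either fit. Nrp1 was -0.16, Fgf2 -0.10 and Lamb1 -0.17 with the intron-matched sum, Nrp1 was -0.065 to 0.291 leaving out 1 library, and H2-Eb1 was 0.004 regrouped. Of the named-gene values 2978 kept direction and side, 206 lost the threshold, 18 gained it and 15 changed sign. Only a called gene can lose the threshold, so the 206 come from the 13 called genes alone. Each of those passed in 5 (Gm6485 and Hectd2os) to 16 (Cp) of its 24 to 27 other settings. Most of the 2978 belong to genes that were not called. Of the list medians under all settings 1089 moved by less than the spread between replicates and 144 by more, and the endothelial median ran from -0.215 to 0.129 leaving out 1 library. Low genes such as Rhd are limited by fragment number.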
